A study of Mus musculus with 19 samples.

Results

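Oxidative phosphorylation was examined through 108 protein-coding genes of the 55487 genes listed. The members were all genes whose symbol began with Nduf, Uqcr, Cox4 to Cox8 or Atp5, the 4 succinate dehydrogenase subunits (Sdha, Sdhb, Sdhc and Sdhd), Cyc1, and the 13 genes carried by mitochondrial DNA (mt-Nd, mt-Co, mt-Cytb and mt-Atp). Of these, 95 were nuclear and 13 were mitochondrially encoded, and 102 (89 nuclear and 13 mitochondrially encoded) passed the filter on low counts. RNA came from crypts, isolated with EDTA from the small intestine, its most distal part left out, of C57BL/6 mice of both sexes aged 10 to 16 weeks, 1 library per mouse. Neurotensin wild-type (NT+/+) and neurotensin knockout (NT-/-) mice were fed ad libitum (AL) or fasted for 48 hours (Fast), with the fed mice being littermates of the fasted ones of like age and sex. The study also kept both genotypes with an Lgr5-EGFP-IRES-CreERT2 allele, a reporter of stem cells, and the labels do not say which of these mice carried it. There were 5 NT+/+ AL, 4 NT-/- AL, 5 NT+/+ Fast and 5 NT-/- Fast mice. One mouse titled NT+/+ Fast-5 carries the genotype label NT-/- and was grouped by its title.

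The respiratory chain moves electrons from NADH through complex I, or from succinate through complex II, to complex III and on to oxygen at complex IV, and ATP synthase (complex V) uses the proton gradient this builds. Complex II is made of nuclear subunits alone, whereas the other complexes combine nuclear subunits with a few core subunits translated inside the mitochondrion. In the crypt, mitochondrial respiration supports both dividing progenitors and their differentiating daughters.

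Total counts per library ranged from 9059418 to 35068669. Neurotensin (Nts) was measured first, as the targeted gene: it stood at 7.48, 7.74, 8.59, 6.75 and 8.55 CPM (counts scaled to library size by TMM) in the NT+/+ AL mice and 5.50, 4.98, 5.45, 5.71 and 5.43 in the NT+/+ Fast mice. The NT-/- AL mice had 0.147, 0.216, 0.144 and 0.746 CPM and the NT-/- Fast mice 0.214, 0.340, 0.520, 0.296 and 0.793, so the genotypes did not overlap in either diet, and NT+/+ Fast-5 lay among the NT+/+ mice. The libraries NT+/+ AL-1 and NT-/- Fast-2 stood apart in mitochondrial ribosomal RNA, at 1.58% and 0.433% of counts against a median of 0.119% over all mice.

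For 6 mitochondrially encoded genes the table divides reads between the gene and a copy of it in the nuclear genome. The copies form a block on chromosome 1 (GRCm38, minus strand, 24612407 to 24616197) and are annotated as Gm28661 (a copy of mt-Co2), Gm28437 (mt-Co3), Gm10925 (mt-Atp6), Gm29216 (mt-Co1), Gm28438 (mt-Nd3) and Gm10222 (mt-Nd4l). Over 681, 783 and 678 aligned bases the copies of mt-Co2, mt-Co3 and mt-Atp6 had 0 mismatches, so a read from either place has the same letters. The first 80 bases of these 3 genes are shown because the copy holds them without a difference:
mt-Co2 and Gm28661: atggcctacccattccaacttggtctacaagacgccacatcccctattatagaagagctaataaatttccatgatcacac
mt-Co3 and Gm28437: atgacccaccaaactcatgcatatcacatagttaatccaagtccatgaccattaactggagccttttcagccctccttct
mt-Atp6 and Gm10925: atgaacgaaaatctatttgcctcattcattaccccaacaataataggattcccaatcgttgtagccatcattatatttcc

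RSEM, the program that assigned the reads, placed only 0.222% to 0.921% of the mt-Co2 reads on the mitochondrial gene over the 19 mice, and the rest on its copy. For mt-Co3 the share was 0.00179% to 8.05%, and for mt-Atp6 it was 13.3% to 32.5%. For mt-Co2 and mt-Co3 the split varied between mice by more than the summed counts did. In what follows, the counts of the 6 copies were added to their mitochondrial gene, a choice made after the data were seen, and deposited values are given for the genes that moved most.

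Per length, the mitochondrially encoded members were far above the nuclear ones. In the NT+/+ AL mice mt-Co1, the catalytic subunit of complex IV, reached 16443 ± 3103 TPM (counts per length, scaled to a fixed sum per library; SD, n = 5), and mt-Co2 reached 12901 ± 2262. The least abundant mitochondrially encoded member, mt-Nd6 of complex I, was at 1633 ± 584 TPM. The most abundant nuclear member was Atp5b, the catalytic beta subunit of ATP synthase, at 1337 ± 69.9 TPM, a gap to mt-Nd6 smaller than the SD of mt-Nd6.

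Among nuclear genes the median mean level per length rose from complex I (100.1 TPM over 36 subunits) through complex II (180 TPM over 4) and complex III (238 TPM over 9) to complex V (254 TPM over 17) and complex IV (322 TPM over 14). The 8 complex I assembly factors, which build the enzyme without staying in it, had a median of 15.4 TPM. The highest nuclear member of complex I was Ndufb8 at 180.2 ± 8.48 TPM, of complex II Sdha, the flavoprotein subunit, at 209 ± 15.1 TPM, of complex III Uqcrh at 371 ± 10.02 TPM, and of complex IV Cox4i1 at 512 ± 16.4 TPM. Cox6b1, at 505 ± 37.97 TPM, did not differ from Cox4i1 beyond its spread.

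**Figure D1:**
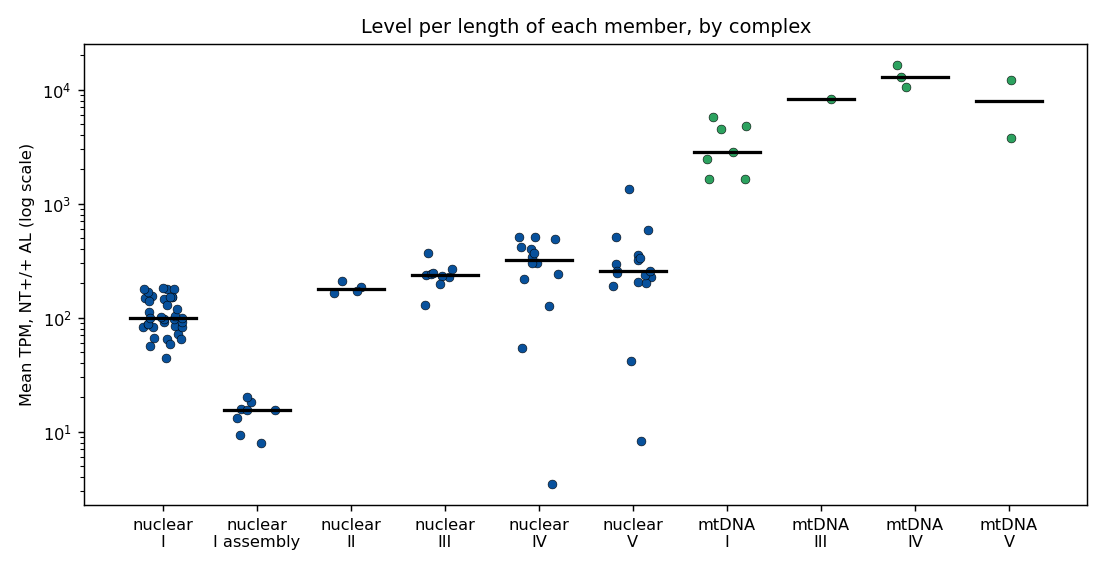
Mean level per length of each member in the 5 NT+/+ AL mice, in TPM on a log axis, with nuclear members in blue and mitochondrially encoded members (copies added) in green, and a black line at each median. Members under the filter and the read-through Atp5o gene are not drawn. The mitochondrially encoded members lie between 1633 and 16443 TPM and the nuclear subunits of complex I between 44.5 and 180 TPM.

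Several subunits of complexes IV and V come in alternative forms, and the crypts held mostly the widely expressed ones. Cox4i1, Cox6a1, Cox7a2, Cox7b, Cox8a and Ndufa4 were at 512, 404, 239, 341, 369.7 and 301 TPM in NT+/+ AL mice. Their counterparts Cox4i2, Cox6a2, Cox8b and Ndufa4l2 had 4, 42, 8 and 28 counts over all 19 mice, and Cox7b2 and Cox8c had 0. These 6 genes are the members that failed the filter. Cox7a1, the form known from heart and skeletal muscle, was measured at 54.2 ± 13.02 TPM. Of the 3 genes for the membrane ring of ATP synthase, Atp5g3 was at 512 ± 33.3 TPM, Atp5g1 at 244 ± 20.9 and Atp5g2 at 41.3 ± 7.87, although 34.7% of the 100-base stretches of Atp5g2 also occur in another gene.

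Fasting lowered a group of nuclear oxidative phosphorylation genes in NT+/+ crypts by modest amounts. In the edgeR quasi-likelihood fit, with p values adjusted by Benjamini-Hochberg over 17875 genes, 27 of the 89 nuclear members fell and 2 rose (adjusted p under 0.05), where 10.4% of all tested genes fell and 11.2% rose. The median log2 fold change was -0.19 over the nuclear members and -0.0089 over all tested genes. In NT-/- mice 22 nuclear members fell and 3 rose, where 12.6% of all tested genes fell and 12.5% rose, and the median was -0.15 against -0.022. Leaving out 1 mouse left 16 to 32 nuclear members lower in NT+/+ mice, with the fewest when NT+/+ Fast-4 was left out, and 16 to 23 in NT-/- mice. Without both libraries high in mitochondrial ribosomal RNA the counts were 18 and 16. With the replicate number of the file names as a block, all 27 and 22 stayed lower. More nuclear members were then lower in NT+/+ mice, where calls over all genes rose from 3862 to 5484. What that number marks is not stated, and the main fit left it out. In bulk RNA, fewer cells of a type and less RNA per cell cannot be told apart.

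**Figure D2:**
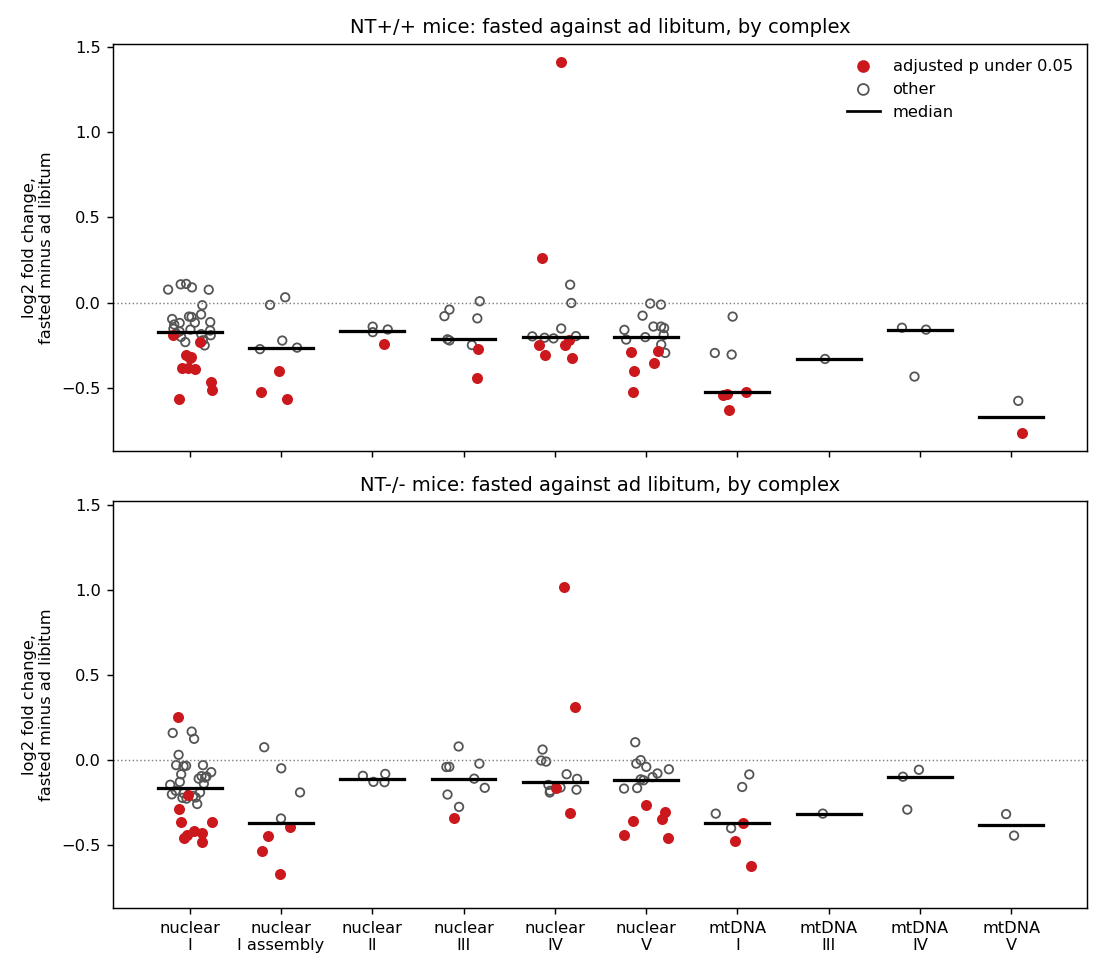
Log2 fold change of each tested member, fasted minus ad libitum, by complex, for nuclear genes (left 6 columns) and mitochondrial DNA (mtDNA) genes with copies added (right 4 columns), where red marks an adjusted p under 0.05 and the black line is the median. Most members lie below 0 in both genotypes, and the read-through Atp5o gene is left out.

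In complex I, the largest of the complexes, 11 of the 36 nuclear subunits fell in NT+/+ mice, and 9 fell and 1 rose in NT-/- mice. Over all tested genes 10.4% fell in NT+/+ mice, and 12.6% fell and 12.5% rose in NT-/- mice. Ndufb6, an accessory subunit in the membrane arm, stood at 34.8, 33.01, 32.6, 31.7 and 30.6 CPM in the NT+/+ AL mice and 25.1, 20.8, 20.5, 17.4 and 26.1 CPM in the NT+/+ Fast mice. It stood at 33.9, 30.4, 28.6 and 35.4 CPM in NT-/- AL and 21.6, 22.7, 24.2, 25.4 and 25.8 CPM in NT-/- Fast mice. Every fasted mouse was below every fed mouse of its genotype. Such separation held for 18 of 89 nuclear members (20.2%) in NT+/+ and 21 (23.6%) in NT-/- mice, beside 6.97% and 10.8% of all tested genes. Separation upward held for 1 (1.12%) and 2 (2.25%) nuclear members, beside 7.63% and 10.5% of all tested genes. The log2 fold change was -0.57 (SE, 0.097; adjusted p = 0.000375) in NT+/+ and -0.42 (SE, 0.10; adjusted p = 0.00517) in NT-/- mice.

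Ndufc1, another accessory subunit, was at 39.3, 36.3, 40.2, 34.7 and 34.4 CPM in NT+/+ AL and 25.2, 24.4, 26.6, 23.99 and 29.3 CPM in NT+/+ Fast mice, a log2 fold change of -0.51 (SE, 0.084; adjusted p = 0.000239). Its NT-/- mice were at 36.8, 37.4, 36.3 and 39.9 CPM when fed and 24.5, 24.3, 27.4, 28.9 and 33.02 CPM when fasted, a log2 fold change of -0.44 (SE, 0.088; adjusted p = 0.00110). The fed and fasted mice did not overlap in either genotype. Ndufs5, Ndufb2, Ndufab1 (the mitochondrial acyl carrier protein) and Ndufa5 also fell in both genotypes without overlap, with log2 fold changes of -0.47, -0.39, -0.38 and -0.31 in NT+/+ mice. For Ndufs5, 12.7% of 100-base stretches are shared with another gene.

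Of the core subunits that carry the flavin and iron-sulfur clusters, 2 of 7 fell in NT+/+ mice, Ndufs8 at -0.39 (SE, 0.11; adjusted p = 0.0164) and Ndufs1 at -0.23 (SE, 0.075; adjusted p = 0.0321), and 1 of 7 in NT-/- mice, Ndufs8 at -0.48 (SE, 0.12; adjusted p = 0.00550). Ndufv1, which binds the flavin, had a log2 fold change of -0.016 and -0.031 in the 2 genotypes, neither past the test. The NT+/+ call of Ndufs8 was lost without NT+/+ AL-1 or Fast-4. The shares of core subunits that fell were 28.6% and 14.3%, beside 10.4% and 12.6% of all tested genes. The NT-/- share was thus near that of all genes. Whether core and accessory subunits differ was not tested. Ndufa6 rose in NT-/- mice, with a log2 fold change of 0.25 (SE, 0.074; adjusted p = 0.0167), against 0.089 (SE, 0.07; adjusted p = 0.396) in NT+/+ mice. The NT-/- call was lost without NT-/- AL-4 (adjusted p = 0.0508 by edgeR). The difference between these effects was 0.16 (SE, 0.10; adjusted p = 1.000).

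Some assembly factors of complex I fell as well. Ndufaf5 was at 10.7, 7.87, 9.71, 6.90 and 8.36 CPM in NT+/+ AL and 6.37, 5.25, 6.33, 4.91 and 6.50 CPM in NT+/+ Fast mice, and fell by 0.57 on the log2 scale (SE, 0.13; adjusted p = 0.00426). Its NT-/- log2 fold change was -0.67 (SE, 0.14; adjusted p = 0.00159). Ndufaf4 fell in both genotypes (-0.53 and -0.53), whereas Ndufaf7 was at 0.031 and 0.074, past the test in neither. In all, 3 of 8 fell in NT+/+ and 4 of 8 in NT-/- mice, where 10.4% and 12.6% of all tested genes fell.

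In complex II, Sdhd, a membrane anchor, was the single gene of 4 past the test in NT+/+ mice, where 10.4% of all tested genes fell. Its values were 195, 173, 168, 167 and 171 CPM in NT+/+ AL and 149.6, 139.7, 154, 136 and 159 CPM in NT+/+ Fast mice, without overlap, with a log2 fold change of -0.24 (SE, 0.071; adjusted p = 0.0182). Sdha, Sdhb and Sdhc had log2 fold changes of -0.16, -0.14 and -0.17, with overlapping mice. In NT-/- mice none of the 4 passed, by edgeR's test or at an unadjusted p under 0.05 (0 of 4). Over all tested genes 12.6% fell and 12.5% rose there, and 36.5% had an unadjusted p under 0.05.

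Complex III gave the smallest p of all members in NT+/+ mice, for Uqcrb, the subunit long called the ubiquinone-binding protein. Uqcrb stood at 117, 96.8, 114, 98.97 and 97.5 CPM in NT+/+ AL mice and 79.1, 75.7, 79.5, 70.1 and 80.7 CPM in NT+/+ Fast mice. The NT-/- AL mice had 100.4, 108, 98.1 and 112 CPM and the NT-/- Fast mice 80.5, 75.6, 85.2, 84.4 and 86.8 CPM. No fasted mouse reached a fed mouse of its genotype, and the log2 fold change was -0.44 (SE, 0.068; adjusted p = 0.000134) in NT+/+ and -0.34 (SE, 0.072; adjusted p = 0.00169) in NT-/- mice. Uqcr10 was the other call in NT+/+ mice at -0.27 (SE, 0.089; adjusted p = 0.0336). The core proteins Uqcrc1 and Uqcrc2, Uqcrh and Uqcrq lay between -0.093 and 0.0077 there and did not pass. The 9 nuclear genes of complex III gave 22.2% lower in NT+/+ mice, beside 10.4% of all tested genes. In NT-/- mice 1 of 9 fell (11.1%), near the 12.6% of all tested genes.

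Complex IV held changes in both directions. Its 14 tested nuclear genes gave 5 lower and 2 higher in NT+/+ mice, beside 10.4% and 11.2% of all tested genes. They gave 2 lower (14.3%) and 2 higher in NT-/- mice, near the 12.6% and 12.5% of all tested genes. In NT+/+ mice Cox5a, Cox7a2, Ndufa4, Cox6c and Cox7c fell, with log2 fold changes of -0.33, -0.31, -0.25, -0.25 and -0.22. Cox5a and Cox6c fell in NT-/- mice as well (-0.31 and -0.17). Cox4i1, the most abundant per length, was at -0.0026 and 0.061 and passed in neither.

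Cox7a2l, described as a factor that joins complexes III and IV into supercomplexes, rose in RNA, and supercomplexes were not measured. It was at 129, 111, 109, 103 and 98.2 CPM in NT+/+ AL and 145, 119, 131, 123 and 145 CPM in NT+/+ Fast mice, and the groups overlapped through NT+/+ AL-1. The NT-/- mice were at 122, 119.7, 117 and 124 CPM when fed and 165, 128, 145, 151 and 159 CPM when fasted, without overlap. Log2 fold changes were 0.26 (SE, 0.081; adjusted p = 0.0241) and 0.31 (SE, 0.086; adjusted p = 0.0118). The NT+/+ call was lost without NT+/+ AL-4, AL-5, Fast-1 or Fast-5.

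Cox6b2, described as the testis form of a complex IV subunit, rose from a very low level: 1.30, 1.07, 1.12, 1.32 and 1.01 CPM in NT+/+ AL mice against 3.19, 2.52, 2.47, 3.31 and 4.03 CPM in NT+/+ Fast mice. The NT-/- values were 1.56, 0.704, 2.26 and 1.28 CPM when fed and 2.78, 2.84, 2.37, 4.83 and 2.22 CPM when fasted, and 1 fed mouse overlapped the fasted ones. The log2 fold change was 1.41 (SE, 0.26; adjusted p = 0.000790) and 1.02 (SE, 0.28; adjusted p = 0.0109), from 731 counts over all mice. Its relative Cox6b1 was at -0.20 and -0.16, past the test in neither.

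In complex V, 5 of 18 genes fell in NT+/+ and 6 of 18 in NT-/- mice, where 10.4% and 12.6% of all tested genes fell. Atp5k, the e subunit of the membrane part, was at 55.5, 46.8, 54.6, 49.7 and 43.5 CPM in NT+/+ AL and 37.2, 30.9, 39.4, 30.6 and 35.3 CPM in NT+/+ Fast mice. It was at 49.2, 49.5, 49.2 and 51.5 CPM in NT-/- AL and 38.4, 31.5, 35.97, 35.3 and 41.5 CPM in NT-/- Fast mice. Fed and fasted mice were separate in both genotypes, with log2 fold changes of -0.53 (SE, 0.086; adjusted p = 0.000239) and -0.44 (SE, 0.091; adjusted p = 0.00141). Atp5j and Atp5f1, of the stalk that holds the catalytic head, fell in both (-0.40 and -0.36, -0.36 and -0.27). Atp5a1 and Atp5b of the catalytic head, and Atp5c1 and Atp5d of the central stalk, lay between -0.20 and -0.0058 in NT+/+ mice. None of them passed. Atp5g1 fell in NT-/- mice at -0.46 (SE, 0.12; adjusted p = 0.00621) and was at -0.30 (SE, 0.11; adjusted p = 0.0586) in NT+/+ mice.

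**Figure D3:**
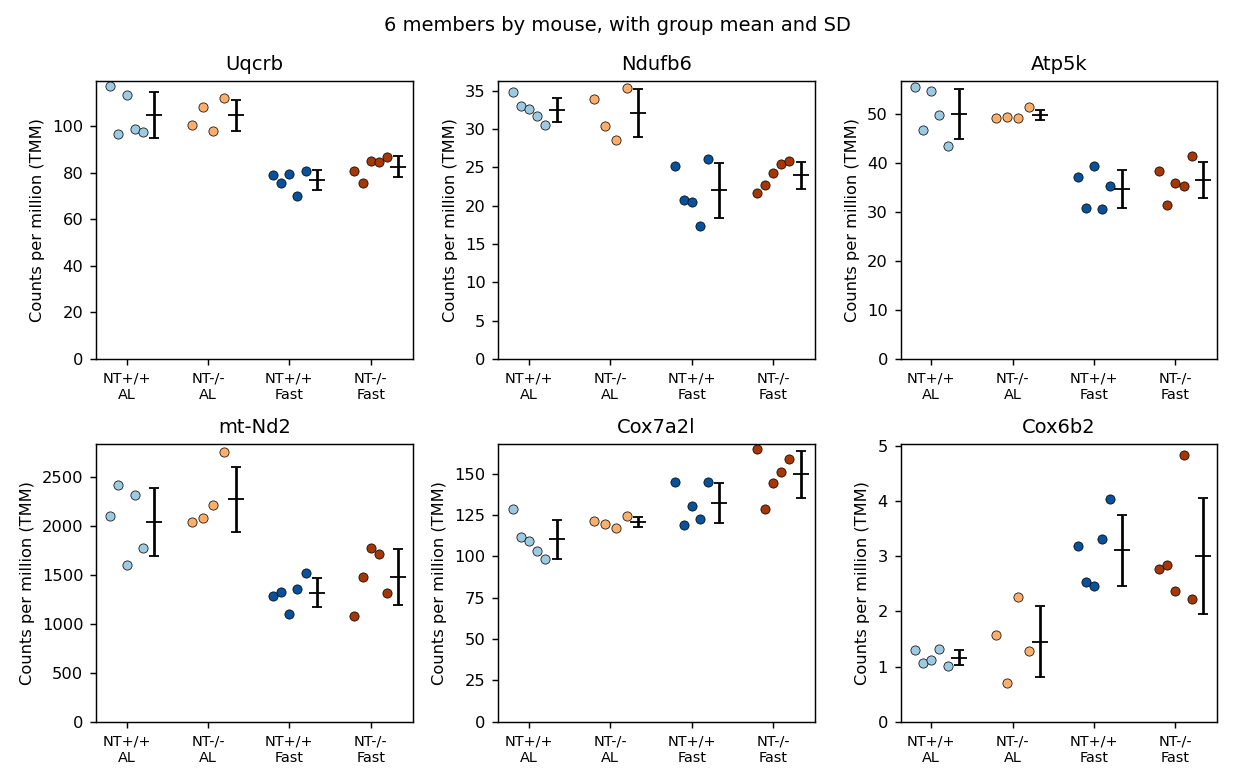
Normalised counts (CPM) of 6 members in each mouse, with the group mean and SD (5 NT+/+ AL, 4 NT-/- AL, 5 NT+/+ Fast and 5 NT-/- Fast mice, each axis from 0). Uqcrb, Ndufb6, Atp5k and mt-Nd2 (no copy added) are lower in every fasted mouse than in every fed mouse of its genotype, and the fasted means of Cox7a2l and Cox6b2 are above the fed means in both genotypes.

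Some mitochondrially encoded genes also fell, with unequal values within 1 genome. With the copies added, all 13 had log2 fold changes below 0 in both genotypes, with medians of -0.44 in NT+/+ and -0.32 in NT-/- mice, and 5 and 3 of them passed the test, where 10.4% and 12.6% of all tested genes fell. As deposited, the medians were -0.53 and -0.32 and the counts of calls were likewise 5 and 3. The deposited NT+/+ median was -0.32 without NT+/+ AL-1, which is high in mitochondrial ribosomal RNA, and leaving out any other mouse gave -0.59 to -0.42. Complex I genes, 7 of the 13, made most of the calls. mt-Nd2, mt-Nd3, mt-Nd4 and mt-Nd4l fell in NT+/+ mice, together with mt-Atp8 of complex V. In NT-/- mice mt-Nd2, mt-Nd3 and mt-Nd4l fell. On the mitochondrial genome mt-Nd4l (bases 9877 to 10173) overlaps mt-Nd4 (10167 to 11544), and mt-Atp8 (7766 to 7969) overlaps mt-Atp6 (7927 to 8607). The genes of each such pair are therefore not independent results.

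mt-Nd2 has no near-identical copy in the block. It was at 2100.4, 2414, 1602, 2319 and 1773 CPM in NT+/+ AL and 1283, 1320.3, 1104, 1359.5 and 1523 CPM in NT+/+ Fast mice, and at 2036, 2085, 2214 and 2755 and 1084, 1479, 1779, 1717 and 1318 CPM in NT-/- AL and Fast mice. Fasted mice lay below fed mice in both genotypes, with log2 fold changes of -0.63 (SE, 0.14; adjusted p = 0.00386) and -0.62 (SE, 0.15; adjusted p = 0.00504). As deposited, 2 of the 13 mitochondrially encoded members (15.4%) were separated in this way in each genotype. The shares of all tested genes were 6.97% in NT+/+ and 10.8% in NT-/- mice. mt-Nd4l had -0.54 (SE, 0.16; adjusted p = 0.0202) and -0.47 (SE, 0.17; adjusted p = 0.0441). As deposited, its NT-/- call was lost in 13 of 19 fits that left out 1 mouse, with an adjusted p of 0.0281 to 0.137 by edgeR, and its NT+/+ call without NT+/+ AL-2 or AL-4. mt-Nd3 had -0.53 (SE, 0.12; adjusted p = 0.00332) and -0.37 (SE, 0.12; adjusted p = 0.0354), and as deposited the NT-/- call was lost in 5 of the 19, without NT-/- AL-1, AL-4, Fast-1, Fast-2 or Fast-3. mt-Nd4, of which 60.8% of 100-base stretches occur in another annotated gene, had -0.54 (SE, 0.16; adjusted p = 0.0183) and -0.40 (SE, 0.17; adjusted p = 0.0848), and the NT+/+ call was lost without NT+/+ AL-2 or Fast-3.

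mt-Atp8, a short subunit of the ATP synthase membrane part, was at 337, 520.0, 228, 364 and 307 CPM in NT+/+ AL and 206, 192, 149.9, 175 and 311 CPM in NT+/+ Fast mice, which overlap, with -0.76 (SE, 0.26; adjusted p = 0.0381) there and -0.44 (SE, 0.27; adjusted p = 0.249) in NT-/- mice. In the deposited values the NT+/+ call was lost without NT+/+ AL-1, AL-2, AL-4, Fast-1, Fast-2, Fast-3 or Fast-4. As deposited, without both libraries high in mitochondrial ribosomal RNA, 4 mitochondrially encoded members were lower in NT+/+ and 1 in NT-/- mice, and leaving out 1 mouse gave 2 to 6 and 1 to 5.

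The other mitochondrially encoded genes did not pass the test. mt-Nd5 was at -0.083 and -0.086, mt-Co1 at -0.15 and -0.058, and mt-Co2 at -0.16 and -0.099. As deposited, mt-Co2 in NT-/- mice read 0.53 (SE, 0.28) and mt-Co3 read -2.57 (SE, 1.08) in NT+/+ and -1.34 (SE, 1.08) in NT-/- mice. With copies added, mt-Co2 became -0.099 (SE, 0.14; adjusted p = 0.672) in NT-/- mice, and mt-Co3 became -0.44 (SE, 0.16; adjusted p = 0.0529) and -0.29 (SE, 0.17; adjusted p = 0.215). mt-Atp6, mt-Cytb, mt-Nd1 and mt-Nd6 had -0.58, -0.33, -0.31 and -0.30 in NT+/+ mice and did not pass, nor did they in NT-/- mice. Some of these gained a call under alternatives. Apart from leaving out 1 mouse, mt-Atp6 and mt-Cytb passed in 2 settings each and mt-Co3 in 1, all in NT+/+ mice. Leaving out 1 mouse (edgeR, as deposited) gave a lowest adjusted p of 0.0486 for mt-Atp6 and 0.0377 for mt-Co3 in NT+/+ mice. In NT-/- mice it was 0.0472 for mt-Nd4 and 0.0467 for mt-Cytb.

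**Figure D4:**
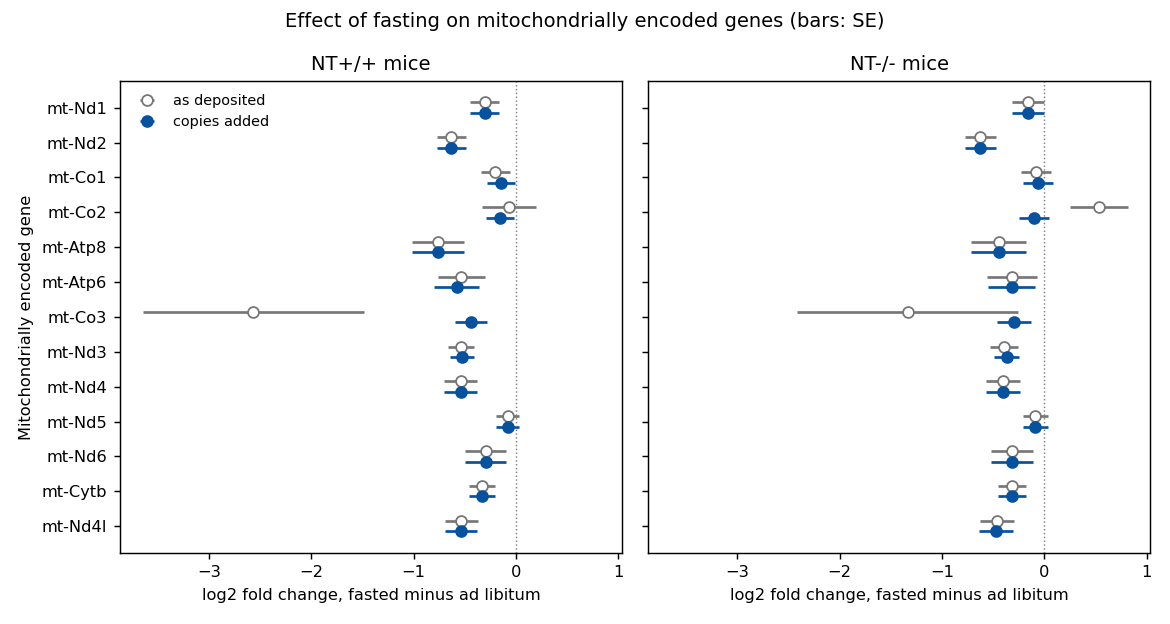
Log2 fold change of each mitochondrially encoded gene, fasted minus ad libitum, with its SE, as deposited (open grey) and with nuclear copies added (blue), in NT+/+ (left) and NT-/- mice (right). mt-Co3 moves from -2.57 to -0.44 in NT+/+ mice and mt-Co2 from 0.53 to -0.099 in NT-/- mice, while the other genes move little.

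As a share of all counts, the 13 mitochondrially encoded members with copies made up 5.57, 7.94, 5.15, 7.60 and 6.15% in the NT+/+ AL mice and 5.22, 5.48, 4.42, 5.29 and 6.08% in the NT+/+ Fast mice. The NT-/- AL mice had 6.41, 6.83, 7.29 and 8.44% and the NT-/- Fast mice 4.46, 6.17, 7.07, 7.47 and 5.17%. Fed and fasted mice overlapped in both genotypes. The 95 nuclear members together made 1.15% ± 0.036 of counts in NT+/+ AL (SD, n = 5) and 1.03% ± 0.053 in NT+/+ Fast mice (n = 5), and 1.19% ± 0.052 (n = 4) and 1.06% ± 0.061 (n = 5) in the NT-/- groups.

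**Figure D5:**
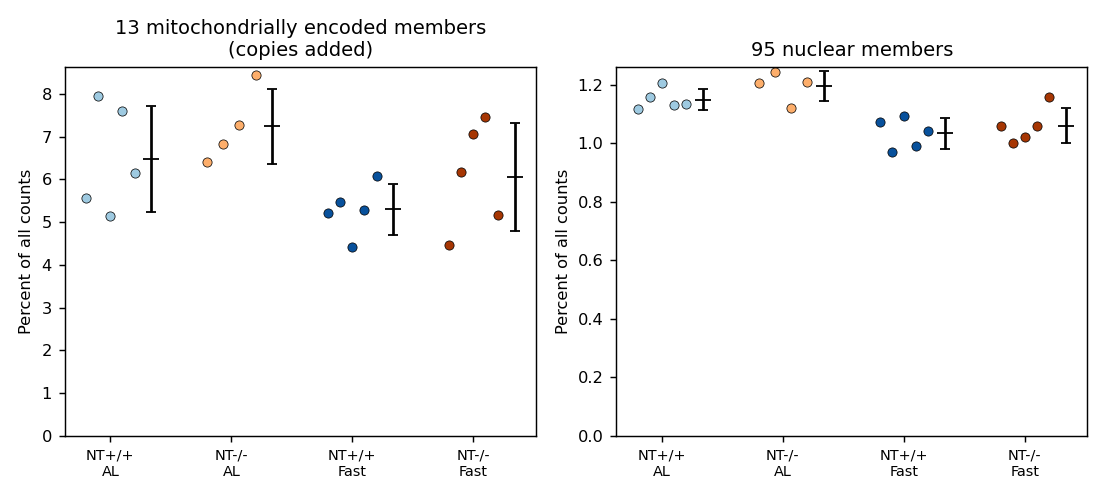
Percent of all counts on the 13 mitochondrially encoded members with copies added (left) and on the 95 nuclear members (right), by mouse, with group mean and SD, both axes from 0. The mitochondrial share runs from 4.42% to 8.44% and the nuclear share from 0.970% to 1.24% over the 19 mice.

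Loss of neurotensin did not give a call in any member. In simulated data the same steps missed most of the smaller changes put in. Every simulated gene had the spread common to all genes (biological coefficient of variation, 18.9%). The simulation therefore does not give the size of change that can be missed in these members, and small differences can go uncalled. Between NT-/- and NT+/+ mice fed ad libitum, 0 of 102 members passed edgeR's test, where 0.00559% of all tested genes passed, and 0 were at an unadjusted p under 0.05, where 1.67% of all tested genes were. In fasted mice 0 of 102 passed the test (0.00559% of all tested genes), and 7 had an unadjusted p under 0.05, all higher in NT-/- mice, beside 9.14% of all tested genes. DESeq2 also gave 0 in each. Above 0 in NT-/- mice were 79 of 102 members when fasted and 69 of 102 when fed, beside 47.3% and 49.6% of all tested genes. The difference between the effects of fasting gave 0 members (0% of all tested genes) and 0 at an unadjusted p under 0.05, beside 2.71% of all tested genes.

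As deposited, the smallest p among members in fasted mice was that of mt-Nd3, whose values are given here from the fit with copies added. With copies it was at 258, 242, 237, 242 and 294 CPM in NT+/+ and 307, 278, 343, 354 and 360.1 CPM in NT-/- Fast mice. The log2 difference was 0.37 (SE, 0.12; adjusted p = 0.345 by edgeR). Next came Ndufa6 at 61.4, 61.8, 72.6, 72.8 and 60.2 CPM in NT+/+ and 72.8, 72.7, 83.7, 74.3 and 78.9 CPM in NT-/- Fast mice at 0.22 (SE, 0.07; adjusted p = 0.344) and Atp5c1 at 0.16 (SE, 0.06; adjusted p = 0.413). These differences do not pass the test. Median log2 differences in fasted mice were 0.060 over nuclear and 0.26 over mitochondrially encoded members with copies, against -0.013 over all tested genes. In fed mice they were 0.015 and 0.14. Leaving out 1 mouse moved the nuclear median from 0.016 (without NT-/- Fast-5) to 0.097 (without NT+/+ Fast-3) in fasted mice and from -0.011 to 0.061 in fed mice, where it was below 0 without NT+/+ AL-2, AL-4 or AL-5. As deposited, the mitochondrially encoded medians were 0.27 in fasted and 0.15 in fed mice, and ran from 0.21 to 0.35 and from 0.048 (without NT-/- AL-4) to 0.22 (without NT+/+ AL-2). As deposited, mt-Nd3 differed by 0.41 in fasted and 0.27 in fed mice, mt-Co2 by 0.53 (SE, 0.26) and mt-Co3 by 1.73 (SE, 1.06) in fasted mice, where mt-Co2 and mt-Co3 with copies had 0.19 and 0.27. Some cell type marker lists lay to 1 side beside these values, with no marker past edgeR's adjusted test. In fasted mice all 10 villus enterocyte markers were above 0 (median 0.41, 2 at an unadjusted p under 0.05). All 6 markers of dividing cells were below 0 (median -0.25, 5 at an unadjusted p under 0.05). So were all 6 stem cell and all 6 goblet cell markers (medians -0.21 and -0.33, 0 and 1 at an unadjusted p under 0.05). All 4 tested tuft cell markers were above 0 (median 0.11). Paneth, enteroendocrine, immune and stromal markers went both ways. The part of these markers in the members' values was not tested. In fed mice the members with the smallest p as deposited were mt-Nd3, Cox7a1 and Cox7a2l. Their log2 differences in fed mice were 0.21 for mt-Nd3 with copies added (SE, 0.12; adjusted p = 1.00), 0.32 for Cox7a1 (SE, 0.18; adjusted p = 1.00) and 0.13 for Cox7a2l (SE, 0.086; adjusted p = 1.00).

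Further genes that act on the same pathway gave calls in both directions with fasting, mostly lower for assembly factors and RNA processing. Of all tested genes, 10.4% fell and 11.2% rose in NT+/+ mice, and 12.6% fell and 12.5% rose in NT-/- mice. Of 43 tested assembly factors of complexes I to V, 13 fell and 1 rose in NT+/+ mice, and 14 fell and 1 rose in NT-/- mice. Lyrm7 and Cox20, which help build complexes III and IV, had -0.74 (SE, 0.16; adjusted p = 0.00297) and -0.73 (SE, 0.16; adjusted p = 0.00282) in NT+/+ mice, and Atpaf1, of ATP synthase assembly, rose at 0.32 (SE, 0.099; adjusted p = 0.0243). Of 19 genes for mitochondrial RNA processing and stability, 9 fell in NT+/+ mice, and 7 fell and 1 rose in NT-/- mice. Fastkd2 and Lrpprc, which stabilise mitochondrial RNAs, had -0.61 (SE, 0.081; adjusted p = 2.76e-05) and -0.52 (SE, 0.08; adjusted p = 0.000126) in NT+/+ mice. Their NT-/- values were -0.63 (SE, 0.086; adjusted p = 3.29e-05) and -0.57 (SE, 0.084; adjusted p = 7.38e-05).

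Of 18 genes that copy or transcribe mitochondrial DNA, 3 (16.7%) fell and 1 rose in each genotype. Among all tested genes 10.4% fell and 11.2% rose in NT+/+ mice, and 12.6% fell and 12.5% rose in NT-/- mice. Tfam, which packages mitochondrial DNA and starts its transcription, had -0.27 (SE, 0.086; adjusted p = 0.0292) and -0.26 (SE, 0.091; adjusted p = 0.0441), and Polg, the polymerase, -0.28 (SE, 0.073; adjusted p = 0.00933) and -0.44 (SE, 0.078; adjusted p = 0.000379). Of 17 tested regulators, 3 (17.6%) fell and 1 rose in NT+/+ mice, and 4 (23.5%) fell and 2 rose in NT-/- mice. Ppard had -1.08 (SE, 0.13; adjusted p = 7.93e-06) and -1.28 (SE, 0.13; adjusted p = 2.06e-06), whereas its relative Ppara, a receptor that switches on fat oxidation in fasting, had 0.55 (SE, 0.13; adjusted p = 0.00397) and 0.56 (SE, 0.13; adjusted p = 0.00433).

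Genes for electron carriers, coenzyme Q synthesis and proton leak went both ways. Of 22 tested genes of this list, 4 fell and 7 rose in NT+/+ mice, and 5 fell and 6 rose in NT-/- mice. The shares of all tested genes were 10.4% lower and 11.2% higher in NT+/+ mice, and 12.6% and 12.5% in NT-/- mice. Cycs, cytochrome c, which carries electrons from complex III to complex IV, had -0.77 (SE, 0.13; adjusted p = 0.000291) and -0.70 (SE, 0.14; adjusted p = 0.000912). Etfb and Etfdh, which pass electrons from fatty acid oxidation to coenzyme Q, rose by 0.74 (SE, 0.08; adjusted p = 2.84e-06) and 0.69 (SE, 0.078; adjusted p = 4.54e-06) in NT+/+ mice and by 0.71 (SE, 0.085; adjusted p = 7.45e-06) and 0.80 (SE, 0.083; adjusted p = 2.00e-06) in NT-/- mice on the log2 scale.

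Markers of other cells moved with fasting too. Of 10 villus enterocyte markers, 8 rose in NT+/+ and 10 in NT-/- mice. Their summed level was 3907 to 8242 CPM in NT+/+ AL and 8497 to 17055 CPM in NT+/+ Fast mice, and 6037 to 9066 and 14953 to 20021 CPM in the NT-/- groups. Fabp1 had 2.09 (SE, 0.23; adjusted p = 3.80e-06) in NT+/+ mice. Of 6 markers of dividing cells 4 fell in NT+/+ and 5 in NT-/- mice, with summed levels of 1499 to 1710 against 973 to 1311 CPM in NT+/+ mice and 1435 to 1569 against 852 to 1108 CPM in NT-/- mice. Fibroblast, endothelial, muscle and blood markers were near 0 (10.2 to 30.6 CPM in fed mice) with 0 of 8 past the test by edgeR in either genotype and 0 at an unadjusted p under 0.05. Of 6 stem cell markers 1 fell in NT+/+ and 2 in NT-/- mice, of 7 Paneth cell markers 1 and 2, and of 6 goblet cell markers 2 and 4. In NT+/+ mice 4 of 6 stem cell and 4 of 7 Paneth cell markers were above 0 (medians 0.21 and 0.13). In NT-/- mice 2 of 6 and 2 of 7 were (medians -0.13 and -0.052). Of all tested genes, 10.4% fell and 11.2% rose in NT+/+ mice, and 12.6% fell and 12.5% rose in NT-/- mice. Of 6 enteroendocrine markers 1 rose in NT+/+ mice, and 1 rose and 1 fell in NT-/- mice, and of 9 immune markers 0 and 1 rose. The 4 tested tuft cell markers gave 0 calls, with edgeR and at an unadjusted p under 0.05. The part these shifts have in the members' changes was not tested.

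Promoters of nuclear members were searched for motifs of factors known to drive respiratory genes, as a description of the letters alone. Of 94 nuclear member symbols (the symbol Atp5o stands for a pair of genes), 76 had an entry among the RefSeq promoters (GRCm38.p6, 250 bases before to 50 after the start). The motif GCATGCGC, a half-site of NRF1, was in 15.8% of these genes and 3.05% of all genes. The ETS site CCGGAAG was in 23.7% against 9.93%, the YY1 site AAGATGGCG in 10.5% against 1.64%, and the ERR half-site AAGGTCA in 10.5% against 5.38%, on either strand. Promoters of 2 members that fell in both genotypes are shown with their motifs in capitals, Atp5k (chr5:108434350-108434649, minus strand) with overlapping NRF1 half-sites on both strands, an ETS site and an ERR half-site, and Ndufc1 (chr3:51408906-51409205, minus strand) with a YY1 site:
Atp5k: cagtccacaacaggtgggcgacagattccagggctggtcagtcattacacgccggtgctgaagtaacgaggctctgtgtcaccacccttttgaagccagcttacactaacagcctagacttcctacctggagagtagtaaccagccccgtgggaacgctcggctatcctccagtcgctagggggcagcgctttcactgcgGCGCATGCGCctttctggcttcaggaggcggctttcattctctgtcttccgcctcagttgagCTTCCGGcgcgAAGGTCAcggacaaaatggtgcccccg
Ndufc1: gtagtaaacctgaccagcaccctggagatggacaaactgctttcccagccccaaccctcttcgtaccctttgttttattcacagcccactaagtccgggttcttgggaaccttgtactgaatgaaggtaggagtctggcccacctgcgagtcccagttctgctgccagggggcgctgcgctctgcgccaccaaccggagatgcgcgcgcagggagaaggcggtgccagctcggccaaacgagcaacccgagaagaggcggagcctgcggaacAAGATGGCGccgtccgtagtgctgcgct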

How the data were processed

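Ribosomal RNA was removed from the total RNA by the authors before single-end sequencing; adapters were trimmed by Trimmomatic 0.39 and RSEM assigned the reads to GRCm38 transcripts. They deposited RSEM expected counts, which divide reads shared between genes by a model, and effective lengths, another unit. Strand use is not given in the sources used here. Expected counts were rounded. Genes passing filterByExpr (17875) were fitted with edgeR 4.0.16 (R 4.3.3; TMM, quasi-likelihood test, 4 group coefficients, 15 residual degrees of freedom), with adjustment over all tested genes at 0.05; SE is the absolute log2 fold change over the square root of F. TPM was computed from expected count and effective length. The members and lists were chosen with earlier results of these data known. Named genes were all mitochondrially encoded members, the 12 highest and 12 lowest called nuclear members per comparison, the highest per complex, isoform families, complex II, and the smallest p where nothing was called; values of other members are given to complete their complex and were chosen after their values were seen. Alternatives included DESeq2 1.42.0, other scalings and filters, sex, replicate number and leaving out each mouse. The edgeR steps were tested on simulated data with the same spread for all genes. These gave the right signs and sizes but missed most calls of the smaller folds put in. Each library is 1 mouse.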

Additional observations from a re-analysis of the deposited data

Results flagged for a closer look

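In 164 sets of 4 or 5 mice, 8 had 1 mouse far from the others by Dixon's test, about the 1 in 20 that chance gives. Mouse NT-/- AL-4 accounted for 4 of them: Atp5k at 51.5 CPM (others 49.2 to 49.5; gap 0.869 of the range), Ndufaf3 at 7.94 (others 9.77 to 10.1; 0.854), mt-Atp8 at 637 (others 244 to 295; 0.868) and mt-Nd4 at 7074 (others 5357 to 5575; 0.873). Cox6b2 in NT-/- Fast-4 was at 4.83 CPM (others 2.22 to 2.84; 0.764), and mt-Nd1 in NT+/+ Fast-5 at 4154 CPM (others 3301 to 3413; 0.869). Mitochondrial ribosomal RNA took 1.58% of counts in NT+/+ AL-1 (others 0.106% to 0.159%; 0.963) and 0.143% in NT+/+ Fast-2 (others 0.0621% to 0.0793%; 0.786).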

How the results depend on the processing

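Under 32 alternatives, 37 called gene results gave 1184 values, of which 1086 stayed called in the same direction, 98 lost the call and 0 reversed; Ndufaf2, Ndufaf3 and mt-Nd4l (NT-/-) lost it most often. Results not called gave 859 values, of which 847 stayed so, 9 gained a call and 3 changed sign. In the main fit the counts were 27 and 22 nuclear members lower in NT+/+ and NT-/- mice. Fed mice were littermates of fasted ones, but the labels do not say that a replicate number marks a shared litter or batch. Not every same-numbered pair correlated above 0.1, and the main fit left the number out. The main counts therefore take no account of any pairing. The data hint at a link: same-numbered mice of different groups correlated at a mean of 0.184 by title (19 of 27 pairs over 0.1) and 0.227 by file name (24 of 27, lowest 0.067), against -0.046 and -0.056 for mice of different number (17 and 12 of 108 over 0.1), and 13 and 17 of 19 mice correlated best with one of their own number. The block by file name raised calls over all genes from 3862 to 5484 in NT+/+ mice and from 4499 to 5672 in NT-/- mice. All 27 and 22 nuclear members of the main fit stayed lower with it. With the replicate block by file name, 53 members were called in NT+/+ mice, 44 nuclear members lower; with the block by title, 32 nuclear members were lower there and 25 in NT-/- mice. Grouping NT+/+ Fast-5 as NT-/- left 1 nuclear member higher in NT+/+ mice. Fitting only the groups compared left 1 mitochondrially encoded member lower in NT-/- mice, as did leaving out the 2 libraries high in mitochondrial ribosomal RNA, an alternative chosen after seeing the data, which left 18 and 16 nuclear members lower. With copies and mitochondrial ribosomal RNA, the mitochondrial share rose from 4.62%, 5.18%, 3.76% and 4.32% to 6.90%, 7.35%, 5.38% and 6.24% in the NT+/+ AL, NT-/- AL, NT+/+ Fast and NT-/- Fast groups.

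Leaving out 1 mouse gave 22 to 37 members called in NT+/+ mice, with 16 to 32 nuclear members lower (17 without NT+/+ AL-1 or NT+/+ Fast-2, 16 without NT+/+ Fast-4), 1 to 2 higher and 2 to 6 mitochondrially encoded members lower (2 without NT+/+ AL-2, 3 without NT+/+ AL-4 or NT+/+ Fast-3). Nuclear members higher fell to 1 without NT+/+ AL-4, AL-5, Fast-1 or Fast-5. In NT-/- mice 1 to 5 mitochondrially encoded members were lower (1 without NT-/- AL-1, AL-4, Fast-1 or Fast-2, 5 without Fast-4). The causes were not tested. mt-Co2 as deposited reversed: in NT-/- mice to -0.099 with copies added, and in NT+/+ mice leaving out 1 mouse gave -0.35 to 0.13, with 0.020 without NT+/+ AL-2 and 0.13 without NT+/+ Fast-2. The comparisons of genotypes and of the effects of fasting gave 0 members under every alternative run, although DESeq2 called 101 of all tested genes between fasted genotypes where edgeR called 1.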
